A study of Mus musculus with 8 samples.

Results

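Cholesterol synthesis and its control by the transcription factor SREBP2 were followed through 33 genes, out of the 45706 Ensembl gene identifiers in the count table. The 33 were taken by function from a fixed list of sterol genes, and each was matched by its identifier and symbol in the GENCODE M21 annotation of GRCm38. By role they are 4 genes that control SREBP, 8 enzymes of the mevalonate and isoprenoid steps, 12 enzymes that lead from farnesyl diphosphate through squalene to cholesterol, 5 genes of sterol uptake and trafficking, and 4 genes of esterification and HDL. The rule names genes by function and uses no measured value. All 33 passed the filter on low counts, and their lowest count in any liver was 147 reads (*Fdps*).

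Cells sense cholesterol in the membrane of the endoplasmic reticulum. When sterol is low, SCAP carries SREBP2 to the Golgi, proteases release its active part, and that part turns on the genes for cholesterol synthesis and for LDL uptake; when sterol is plentiful, INSIG proteins hold SCAP back. Because the enzymes answer to the same factor, their RNAs are known to go up and down together, and the liver is a main site where this happens. Some of the 33, such as *Mylip*, *Soat1* and *Lcat*, belong to sterol handling but are not textbook SREBP2 targets.

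The samples were livers of 8 male mice of the C57BL/6J strain, spelled C56B6/J in the labels, with 1 library each. At 6 weeks of age 4 mice received AAV-*Srsf10-kd* in the tail vein, an AAV2/8 vector whose CBA promoter drives GFP and a mirE/shRNA against the splicing factor *Srsf10*, and the other 4 received AAV-*Ctrl*, the control vector. Both groups began a high-fat diet (HFD), with 60% of its calories from fat, 4 weeks after injection and ate it for 12 weeks. The comparison asked how knock-down of *Srsf10* alters liver RNA under the diet. CBA is a broadly active promoter and not one restricted to hepatocytes.

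Counted reads per liver ranged from 50456404 to 56575926 in the *Srsf10-kd* group and from 50538612 to 59697241 in the *Ctrl* group. Levels are given as CPM, a gene's reads scaled to a common library size by edgeR's TMM, and differences as log2 fold changes, *Srsf10-kd* minus *Ctrl*, with their standard error (SE). *Srsf10* itself was at 34.0 to 41.0 CPM where the label is *Srsf10-kd* and at 30.9 to 35.3 CPM in the *Ctrl* livers, a log2 fold change of 0.15 (SE 0.10, adjusted p = 0.378, edgeR), so the RNA did not show the knock-down and the groups are named here by their labels. *Srsf10-kd* 3 stood apart: it was the highest or the lowest of the 8 livers for 56.7% of the 15491 genes tested, and for 16 of the 33 sterol genes. Hepatocyte markers (8 of 8 detected) summed to 79510 to 116400 CPM in every liver, as a liver label asks, whereas the 4 lymphocyte markers summed to 2.39 CPM at most.

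Between the groups, 0 of the 33 sterol genes passed an adjusted p of 0.05 by the quasi-likelihood test of edgeR, where 0.071% of all genes tested did. At an unadjusted p under 0.05 there were 4 of 33 (12.1%), against 21.8% of all genes: *Srebf2* and *Npc1* with lower and *Pmvk* and *Npc2* with higher means in the *Srsf10-kd* livers. DESeq2 likewise gave 0 adjusted and 4 unadjusted, where the shares of all genes were 5.75% and 23.6%. With limma-voom, run with sample quality weights, there were 0 adjusted and 6 unadjusted (18.2%), against 11.7% and 31.4% of all genes. The 4 livers of one group all lay beyond the 4 of the other for 3 of 33 (9.09%), namely *Ggps1*, *Pmvk* and *Npc2*, against 14.3% of all genes. The log2 fold change was below 0 for 20 of the 33 and for 48.7% of all genes, and its median was -0.03 for the sterol genes and 0.01 for all genes. Without *Srsf10-kd* 3 the counts were 22 below 0 (background 49.3%), 3 at an unadjusted p under 0.05 (background 16.8%), 3 that did not overlap (background 16.2%) and 0 adjusted.

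**Figure D1:**
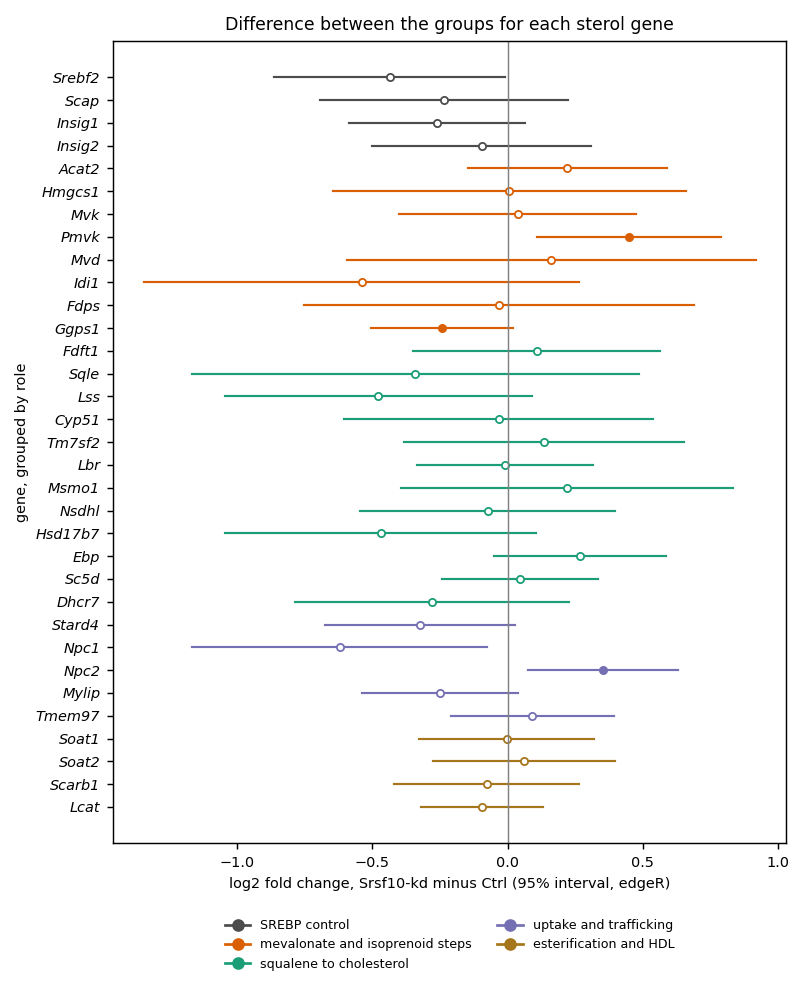
Log2 fold change of each of the 33 sterol genes (x axis, *Srsf10-kd* minus *Ctrl*) with its 95% interval from edgeR, ordered and coloured by role; filled points are genes whose 4 livers of one group all lie beyond the other 4. Only 4 intervals leave out 0, those of *Srebf2*, *Pmvk*, *Npc1* and *Npc2*, and the longest ones belong to enzymes such as *Idi1* and *Sqle*.

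The enzymes of synthesis spread more among the livers labelled *Srsf10-kd* than among the *Ctrl* livers. The standard deviation (SD) of log2 CPM over 4 livers had a median over the 20 enzymes of 0.51 in the *Srsf10-kd* group and of 0.19 in the *Ctrl* group, where the medians over all genes were 0.24 and 0.22. It was larger in the *Srsf10-kd* group for 19 of the 20 enzymes, all but *Lbr*, and for 55.7% of all genes. The highest *Srsf10-kd* liver exceeded the lowest by more than 2-fold for 12 of the 20 enzymes (19.6% of all genes), and in the *Ctrl* group this held for 0 of 20 (16.7% of all genes). These counts were made after the values had been seen and carry no test.

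**Figure D2:**
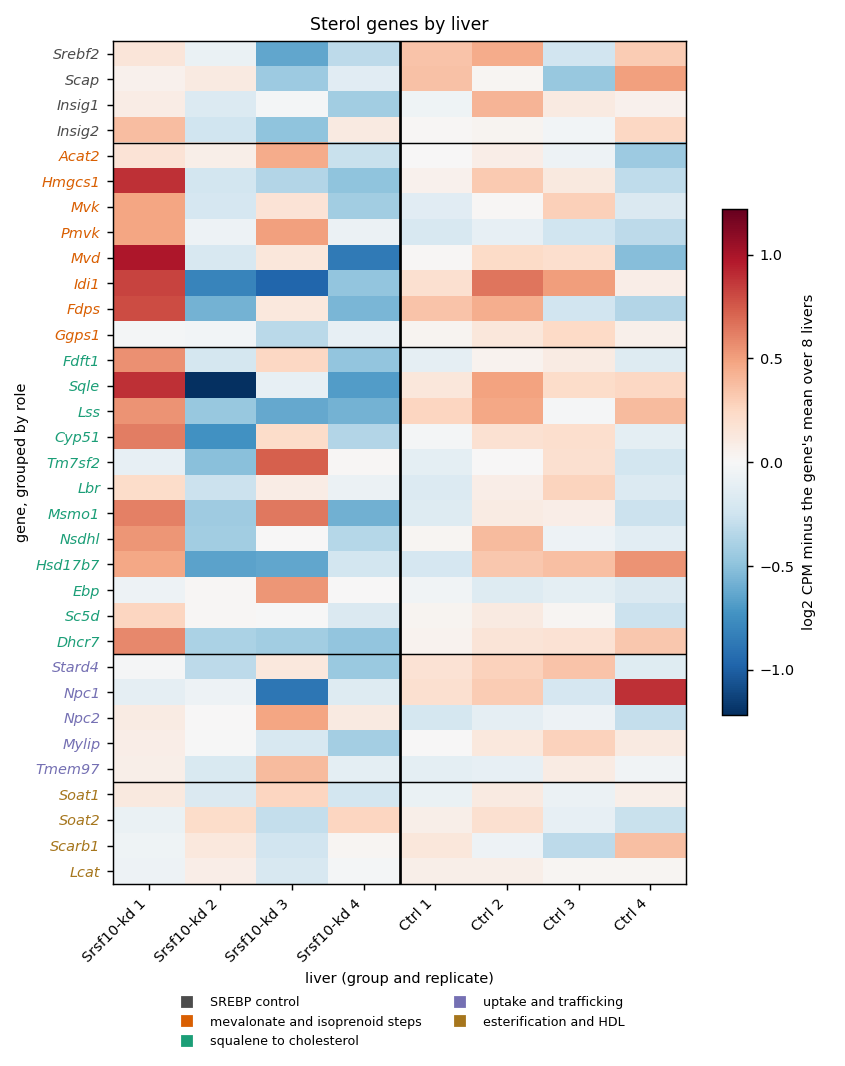
Log2 CPM of each of the 33 sterol genes in each liver, minus the gene's mean over the 8 livers (red above, blue below), with rows grouped by role and the thick line between the 2 groups. Most enzyme rows are red in *Srsf10-kd* 1 and blue in *Srsf10-kd* 2 and 4, while the *Ctrl* columns stay paler.

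Many of the enzymes, but not all, were high or low in the same livers. Relative to each gene's mean over the 8 livers, the median enzyme stood at 0.54 on the log2 scale in *Srsf10-kd* 1 (1.46-fold), at -0.32 in *Srsf10-kd* 2, at 0.11 in *Srsf10-kd* 3 and at -0.39 in *Srsf10-kd* 4 (0.762-fold). The *Ctrl* livers lay between -0.17 and 0.15. The enzymes went together there too, by smaller amounts. *Ctrl* 2 was above the mean for 18 of the 20 enzymes and *Ctrl* 4 below it for 14, where *Srsf10-kd* 1 was above it for 17. *Srsf10-kd* 1 was the highest of the 8 livers for 12 of the 20 enzymes (6.38% of all genes), and *Srsf10-kd* 2 or 4 was the lowest for 13 of them (14.0% of all genes). In *Srsf10-kd* 3 the enzymes were split, with 12 above and 8 below their mean, from -0.97 (*Idi1*) to 0.73 (*Tm7sf2*) on the log2 scale. This library, which stood apart over all genes, was the highest or lowest of the 8 livers for 8 of the 20 enzymes (40.0%), and without it the SD was larger in the *Srsf10-kd* group for 17 of 20, against 33% of all genes. Without *Srsf10-kd* 1 that count was 11 of 20, near the 57.3% of all genes, with a median SD of 0.30. Summed macrophage markers (8 of 8 detected) were also lowest in *Srsf10-kd* 2 and 4, at 163 and 133 CPM. They were at 225 and 235 CPM in *Srsf10-kd* 1 and 3 and at 168 to 230 CPM in the *Ctrl* livers. Summed endothelial markers were lowest in the same livers, at 212 and 206 CPM. They were at 241 and 226 CPM in *Srsf10-kd* 1 and 3 and at 216 to 260.2 CPM in the *Ctrl* livers. Single markers did not all follow these sums, as macrophage *Timd4* was lowest in *Ctrl* 1 and endothelial *Stab1* in *Ctrl* 3. The part of either cell type in the enzymes' spread was not tested. In bulk liver, fewer cells of a type and less RNA per cell cannot be told apart.

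**Figure D3:**
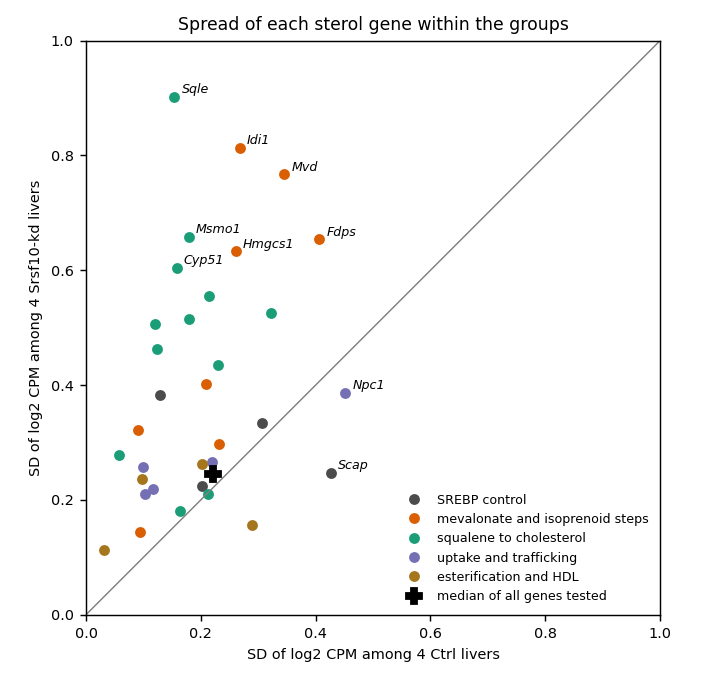
SD of log2 CPM of each sterol gene among the 4 *Ctrl* livers (x axis) and among the 4 *Srsf10-kd* livers (y axis), coloured by role, with the line of equal spread and a black cross at the median of all genes tested (0.22 and 0.24). All but 4 genes lie above the line, and *Sqle*, *Idi1* and *Msmo1* lie farthest from it.

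Of the genes that control SREBP, *Srebf2*, which encodes SREBP2 (chromosome 15, 82147181 to 82205379, plus strand), was at 52.9, 45.3, 30.8 and 38.4 CPM in *Srsf10-kd* 1 to 4 and at 60.7, 65.6, 40.8 and 59.3 CPM in *Ctrl* 1 to 4. Its 3 highest values were *Ctrl* livers, but *Ctrl* 3 fell among the *Srsf10-kd* livers, so the groups overlapped. The means were 41.9 ± 9.47 and 56.6 ± 10.9 CPM (SD, n = 4 each), the log2 fold change was -0.44 (SE 0.19, adjusted p = 0.222, edgeR), and the two-sided exact permutation test gave p = 0.0857, where 4 against 4 livers cannot go below 0.0286. *Scap*, the SREBP escort (chromosome 9, 110333288 to 110384950, plus strand), was at 99.3, 104, 70.9 and 87.4 CPM in *Srsf10-kd* 1 to 4 and at 123, 97.5, 69.7 and 136 CPM in *Ctrl* 1 to 4. Here liver 3 was the lowest of each group and the groups overlapped across most of their range (log2 fold change -0.23, SE 0.21, adjusted p = 0.492, edgeR). *Insig1*, which retains SCAP and is itself an SREBP2 target (chromosome 5, 28071363 to 28078662, plus strand), was at 178, 149, 164 and 124 CPM in *Srsf10-kd* 1 to 4 and at 161, 223, 180 and 173 CPM in *Ctrl* 1 to 4. *Srsf10-kd* 4 was the lowest and *Ctrl* 2 the highest, and the groups overlapped between 161 and 178 CPM (log2 fold change -0.26, SE 0.15, adjusted p = 0.302, edgeR). *Insig2*, the second INSIG gene, ranged from 255 to 465 CPM in the *Srsf10-kd* livers and from 351 to 429 CPM in the *Ctrl* livers, with a log2 fold change of -0.10 (SE 0.18). All 4 control genes thus had a log2 fold change below 0, none past the adjusted threshold.

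The mevalonate steps start with *Acat2*, a cytosolic thiolase, and *Hmgcs1*, HMG-CoA synthase. *Hmgcs1* (chromosome 13, 119690379 to 119708260, plus strand) was at 545, 252, 229 and 209 CPM in *Srsf10-kd* 1 to 4 and at 306, 366, 321 and 238 CPM in *Ctrl* 1 to 4. *Srsf10-kd* 1 exceeded every other liver, *Srsf10-kd* 2 lay at the lower end of the *Ctrl* range and *Srsf10-kd* 3 and 4 lay below it. The means were nearly equal, at 309 ± 158 and 308 ± 53.2 CPM (SD, n = 4 each), and the log2 fold change of 0.01 had a 95% interval from -0.65 to 0.66 (adjusted p = 0.992, edgeR). *Acat2* had means of 38.3 ± 7.77 and 32.9 ± 4.92 CPM (SD, n = 4 each) and a log2 fold change of 0.22 (SE 0.17). As 33.9% of the 75-base stretches of its transcripts also occur in its paralog *Acat3*, at 129 to 253 CPM here, the *Acat2* count is uncertain.

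*Pmvk*, phosphomevalonate kinase (chromosome 3, 89454541 to 89469013, plus strand), was at 33.3, 22.9, 33.9 and 22.8 CPM in *Srsf10-kd* 1 to 4 and at 20.9, 22.3, 20.3 and 19.2 CPM in *Ctrl* 1 to 4. Every *Srsf10-kd* liver was above every *Ctrl* liver, but livers 2 and 4 only narrowly, and livers 1 and 3 carried the difference. The log2 fold change was 0.45 (SE 0.15, adjusted p = 0.161, edgeR), the smallest adjusted p of the 33 genes, and the exact permutation p was 0.0286, the smallest possible. *Ggps1*, which makes the geranylgeranyl diphosphate used to anchor small GTPases (chromosome 13, 14050659 to 14063488, minus strand), was at 6.43, 6.40, 5.19 and 6.11 CPM in *Srsf10-kd* 1 to 4 and at 6.72, 7.23, 7.78 and 6.85 CPM in *Ctrl* 1 to 4. All its *Srsf10-kd* values were below all *Ctrl* values, with a gap of only 6.43 to 6.72 CPM and a log2 fold change of -0.24 (SE 0.12, adjusted p = 0.254, edgeR; exact permutation p = 0.0286).

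The other mevalonate and isoprenoid enzymes spread widely within the *Srsf10-kd* group. *Mvd*, the decarboxylase that makes isopentenyl diphosphate, ranged from 6.31 to 22.8 CPM there, 3.61-fold, and from 8.01 to 13.5 CPM in the *Ctrl* group. *Idi1*, the isomerase of the next step, ranged 3.47-fold, with *Srsf10-kd* 1 at 39.9 CPM, above the 23.7 to 35.4 CPM of the *Ctrl* livers, and the other 3 at 11.5 to 16.1 CPM, below them. Its log2 fold change of -0.54 was the lowest of the 20 enzymes and carried an SE of 0.36 (adjusted p = 0.376, edgeR). *Fdps*, farnesyl diphosphate synthase, was at 2.83 to 7.37 and 3.30 to 5.79 CPM (log2 fold change -0.03, SE 0.32), and *Mvk*, mevalonate kinase, at 11.8 to 22.2 and 14.1 to 19.4 CPM (0.04, SE 0.20). Exons of *Fdps* overlap a same-strand read-through gene over 26.7% of their length, so reads in them may not be counted, and 23.6% of the 75-base stretches of *Idi1* occur in other genes.

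From squalene on, *Sqle*, squalene epoxidase and a rate-limiting enzyme of the pathway (chromosome 15, 59315077 to 59331192, plus strand), was at 97.9, 22.6, 49.1 and 32.96 CPM in *Srsf10-kd* 1 to 4 and at 57.9, 74.3, 61.5 and 62.9 CPM in *Ctrl* 1 to 4. It had the widest range of the 33 genes, 4.32-fold within the *Srsf10-kd* group against 1.28-fold within the *Ctrl* group, with *Srsf10-kd* 1 above and the other 3 below every *Ctrl* liver. The log2 fold change was -0.34 with a 95% interval from -1.17 to 0.49 (adjusted p = 0.583, edgeR; exact permutation p = 0.314). *Cyp51*, lanosterol demethylase (chromosome 5, 4081145 to 4104746, minus strand), was at 209, 81.5, 159 and 106 CPM in *Srsf10-kd* 1 to 4 and at 133, 154, 156 and 125 CPM in *Ctrl* 1 to 4. *Srsf10-kd* 1 and 3 were above all *Ctrl* livers and *Srsf10-kd* 2 and 4 below them, and the log2 fold change was -0.03 (95% interval -0.60 to 0.54, adjusted p = 0.948, edgeR).

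The same order of livers, with *Srsf10-kd* 1 alone at the top and the rest of its group below the *Ctrl* range, was seen in *Lss* and *Dhcr7*. *Lss*, lanosterol synthase, which closes the sterol rings, was at 48.1 CPM in *Srsf10-kd* 1, at 21.4 to 24.0 CPM in the other 3 and at 32.5 to 45.7 CPM in the *Ctrl* livers (log2 fold change -0.48, SE 0.25, adjusted p = 0.285, edgeR). *Dhcr7*, which makes cholesterol in the final reduction of one branch, was at 53.0 CPM in *Srsf10-kd* 1, at 25.4 to 27.1 CPM in the other 3 and at 36.4 to 44.5 CPM in the *Ctrl* livers (-0.28, SE 0.23, adjusted p = 0.461). *Hsd17b7*, a keto reductase of sterol demethylation, departed from this order only at the top: *Srsf10-kd* 1, at 151 CPM, was exceeded by *Ctrl* 4 at 159.9 CPM, and the other 3 were at 69.3 to 93.2 CPM, below the lowest *Ctrl* liver at 94.9 CPM. These 3 genes and *Idi1* were picked for this account after their values were seen.

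**Figure D4:**
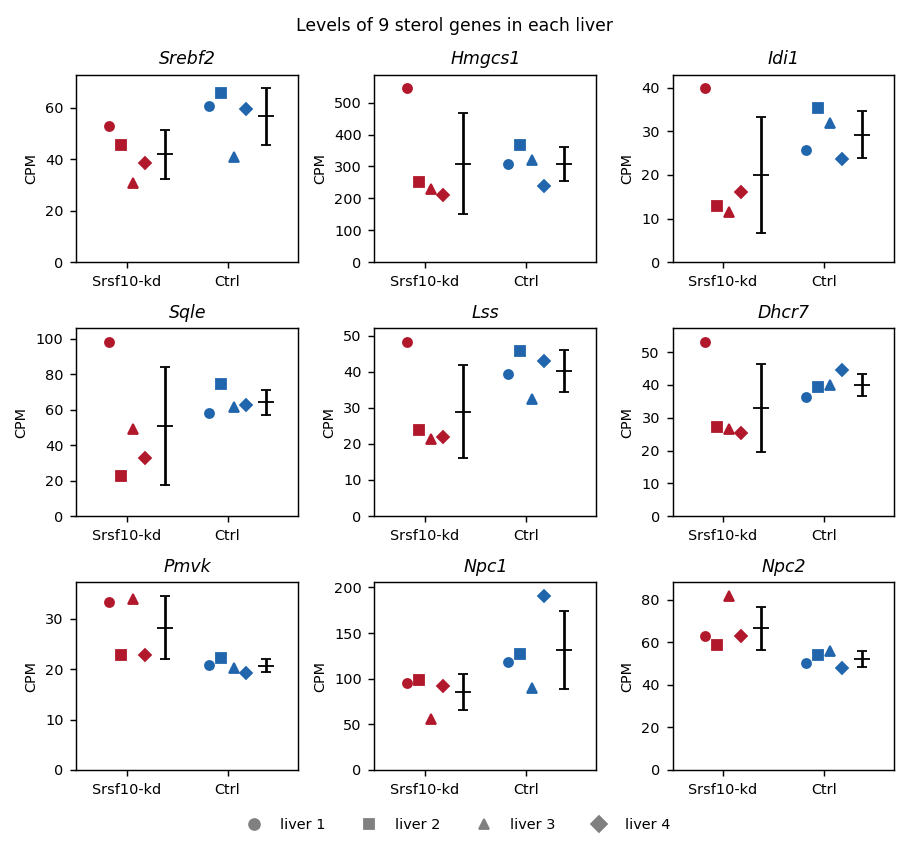
CPM of 9 sterol genes in each liver (points, shaped by replicate number), with the mean and SD of each group of 4 beside them and axes starting at 0. *Hmgcs1*, *Idi1*, *Sqle*, *Lss* and *Dhcr7* show *Srsf10-kd* 1 above the other 3 livers of its group by a wide gap, whereas *Pmvk* and *Npc2* show 2 groups that do not overlap.

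Some late enzymes were highest in *Srsf10-kd* 3. *Tm7sf2*, a sterol reductase, was at 68.9 to 162 CPM in the *Srsf10-kd* and 83.8 to 112 CPM in the *Ctrl* livers. *Msmo1*, the methyl oxidase that starts removal of the methyl groups, was at 112 to 260.3 and 139.5 to 179 CPM, and was nearly as high in *Srsf10-kd* 1, at 256.1 CPM. *Ebp*, the sterol isomerase, reached 231 CPM in *Srsf10-kd* 3 against 153 to 161 CPM in the other 3 and 141 to 155 CPM in the *Ctrl* livers (log2 fold change 0.27, SE 0.14, adjusted p = 0.284, edgeR; exact permutation p = 0.0571). *Fdft1*, squalene synthase, at 67.7 to 139 and 84.7 to 102 CPM, and *Nsdhl*, a dehydrogenase of demethylation, at 22.7 to 44.1 and 27.8 to 39.8 CPM, again had their top value in *Srsf10-kd* 1. *Sc5d*, the desaturase, and *Lbr*, the lamin B receptor with sterol reductase activity, varied little, with log2 fold changes of 0.05 (SE 0.13) and -0.01 (SE 0.15). Part of *Fdft1*, 18.3% of its exon length, lies opposite *Ctsb*, at 407 to 535 CPM, and since the strand setting of the counts is not given in the sources used here, its count is uncertain.

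To show the sequence at the start of such genes, the promoters of 4 enzymes are given, each with 1 annotated window and a range above 2-fold among the *Srsf10-kd* livers. RefSeq windows on GRCm38.p6 run from 250 bases before to 50 after a start. They were matched by symbol, and 26 of the 33 genes were searched. No window was used for the other 7, *Soat2*, *Scarb1*, *Sqle*, *Stard4*, *Npc1*, *Fdft1* and *Fdps*. Windows on the chromosome that holds *Stard4* and *Npc1* were not used for the sterol genes. No such limit was set for the shares of all genes, which thus follow a wider rule. Capitals mark CCAAT, the box bound by NF-Y, which reads ATTGG on the other strand, and the sterol response element TCACNCCAC, bound by SREBP. The windows are chr13:119690101-119690400 (plus strand), chr13:8885356-8885655 (plus), chr8:122443373-122443672 (minus) and chr10:76531355-76531654 (plus), each written 5′ to 3′.
Hmgcs1: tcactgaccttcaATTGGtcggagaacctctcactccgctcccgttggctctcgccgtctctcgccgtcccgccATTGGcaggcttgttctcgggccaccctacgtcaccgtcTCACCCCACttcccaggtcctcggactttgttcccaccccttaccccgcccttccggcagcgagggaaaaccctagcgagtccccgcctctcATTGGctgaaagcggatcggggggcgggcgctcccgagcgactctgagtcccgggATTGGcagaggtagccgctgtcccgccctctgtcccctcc
Idi1: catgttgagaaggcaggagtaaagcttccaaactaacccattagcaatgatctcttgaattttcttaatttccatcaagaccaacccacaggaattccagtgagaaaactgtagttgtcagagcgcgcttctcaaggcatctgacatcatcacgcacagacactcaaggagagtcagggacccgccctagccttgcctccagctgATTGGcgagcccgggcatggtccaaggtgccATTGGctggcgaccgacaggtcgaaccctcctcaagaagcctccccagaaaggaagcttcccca
Mvd: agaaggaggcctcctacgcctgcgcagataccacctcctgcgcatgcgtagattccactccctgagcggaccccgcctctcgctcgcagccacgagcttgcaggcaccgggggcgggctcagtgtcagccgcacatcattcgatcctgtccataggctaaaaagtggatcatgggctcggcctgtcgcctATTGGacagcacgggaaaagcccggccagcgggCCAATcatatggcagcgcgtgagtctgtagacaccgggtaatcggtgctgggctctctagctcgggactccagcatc
Lss: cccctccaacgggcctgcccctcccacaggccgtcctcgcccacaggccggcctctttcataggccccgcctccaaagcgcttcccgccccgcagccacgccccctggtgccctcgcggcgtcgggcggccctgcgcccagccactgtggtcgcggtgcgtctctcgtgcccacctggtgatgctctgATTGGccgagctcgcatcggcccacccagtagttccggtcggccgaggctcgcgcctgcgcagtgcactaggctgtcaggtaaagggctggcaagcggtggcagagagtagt

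In these windows the *Hmgcs1* promoter held the sterol response element once, starting 137 bases before the RefSeq start, and CCAAT 4 times on the other strand. *Idi1* and *Mvd* held CCAAT 2 times each and *Lss* 1 time, and the letters of the sterol response element were not in these 3 windows. Both strands were searched, and in these 4 windows no match of one motif overlapped another. Over the 26 genes searched, CCAAT was found in 24 (92.3%), all but *Acat2* and *Scap*, against 42.5% of the 11096 tested genes with a window. The Sp1 box GGGCGG was found in 23 of 26 (88.5%), against 65.2% of tested genes, and TCACNCCAC in 1 of 26, against 1.44%. Counted by window, since some genes have several, CCAAT was in 24 of the 32 windows of these genes and in 37.4% of all 32851 windows, GGGCGG in 26 of 32 and 35.7%, and TCACNCCAC in 1 of 32 and 1.24%. A match to these letters is a description and not a binding site.

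For sterol uptake and trafficking, the pair that moves cholesterol out of lysosomes differed in sign. *Npc1*, the membrane protein of the pair, was at 95.2, 98.5, 55.8 and 91.8 CPM in *Srsf10-kd* 1 to 4 and at 118, 127, 89.3 and 190.3 CPM in *Ctrl* 1 to 4. *Srsf10-kd* 3 was the lowest and *Ctrl* 4 the highest by a wide gap, and *Ctrl* 3 overlapped the *Srsf10-kd* livers (log2 fold change -0.62, SE 0.24, adjusted p = 0.195, edgeR; exact permutation p = 0.114). Without *Ctrl* 4, the highest, the log2 fold change of *Npc1* was -0.39. *Npc2*, the soluble sterol carrier that hands cholesterol to NPC1 (chromosome 12, 84754562 to 84773152, minus strand), was at 62.7, 58.6, 81.6 and 63.1 CPM in *Srsf10-kd* 1 to 4 and at 50.5, 54.1, 56.0 and 47.8 CPM in *Ctrl* 1 to 4. All *Srsf10-kd* livers were above all *Ctrl* livers, with a log2 fold change of 0.35 (SE 0.12, adjusted p = 0.166, edgeR; exact permutation p = 0.0286). Of the rest, *Stard4*, a cytosolic sterol carrier, had a log2 fold change of -0.32 (SE 0.16, adjusted p = 0.256), *Mylip*, the ligase that marks the LDL receptor for degradation, of -0.25 (SE 0.13, adjusted p = 0.272), and *Tmem97*, a sigma receptor that binds NPC1, of 0.09 (SE 0.14, adjusted p = 0.693).

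Esterification and HDL genes had small differences between the groups of livers. *Soat1* and *Soat2*, the enzymes that esterify cholesterol in the cell, had log2 fold changes of -0.004 (95% interval -0.33 to 0.32) and 0.06 (-0.27 to 0.40). *Scarb1*, the HDL receptor, was at -0.08 (-0.42 to 0.26), and *Lcat*, which esterifies cholesterol in plasma HDL and is secreted by the liver, at -0.09 (-0.32 to 0.13). The *Lcat* level varied by only 1.04-fold over the *Ctrl* livers (388 to 403 CPM) and by 1.21-fold over the *Srsf10-kd* livers (335 to 404 CPM). The median SD of log2 CPM over these 4 genes was 0.20 in the *Srsf10-kd* and 0.15 in the *Ctrl* livers, compared with 0.29 and 0.25 for the SREBP control genes and 0.26 and 0.12 for uptake and trafficking.

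Per length of transcript, on the TPM scale, the levels of the 33 genes in the *Ctrl* livers ran from 599 ± 34.0 (*Lcat*) and 285 ± 33.1 (*Insig2*) to 1.11 ± 0.114 (*Soat1*, SD, n = 4 each). Among the enzymes *Hmgcs1* (181 ± 33.4 TPM) and *Ebp* (171 ± 8.86 TPM) were the highest and did not differ beyond their spread. The lowest as counted were *Ggps1* (3.42 ± 0.162 TPM) and *Fdps* (3.13 ± 0.952 TPM). The wide swings were therefore found both at a high level (*Hmgcs1*) and at a low one (*Mvd*, 12.8 ± 2.74 TPM). The *Fdps* level is uncertain, as reads in the 26.7% of its exon length shared with a same-strand gene may not be counted. That gene, *Gm43738*, had 0 reads in every liver.

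With *Srsf10-kd* 1 left out, the group comparison of the enzymes changed. This liver is detailed because it was seen to be the highest of the 8 for 12 of the 20 enzymes. Leaving it out lowers the group mean of those enzymes by construction, so the shares given here carry no test. The log2 fold change was then below 0 for 25 of the 33 genes, against 48.7% of all genes, and its median over the 20 enzymes was -0.27 in place of -0.002. *Idi1* was at -1.11, *Sqle* at -0.88, *Lss* at -0.84, *Hsd17b7* at -0.77, *Dhcr7* at -0.60 and *Hmgcs1* at -0.42. The groups did not overlap for 10 of 33 (30.3%, background 19.1%), with *Dhcr7*, *Ggps1*, *Hsd17b7*, *Idi1*, *Lss*, *Mylip* and *Sqle* lower and *Ebp*, *Npc2* and *Pmvk* higher in the remaining *Srsf10-kd* livers. An unadjusted p under 0.05 was reached by 10 of 33 (30.3%, background 22.1%) and an adjusted p under 0.05 by 0, the smallest being 0.139. Leaving out *Srsf10-kd* 2 or 4 gave the opposite sign for the median enzyme, 0.10 and 0.12, so single livers decided its direction.

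Transcript length, taken as that of a gene's longest annotated transcript, went with the direction. Sterol genes with transcripts under 3000 bases (14) had a median difference of 0.05 on the log2 scale, and those of 3000 bases or more (19) one of -0.23, with 14 of the 19 below 0. Over all genes tested the medians were 0.18 and -0.13. Spearman's rho of log2 fold change on length was -0.52 across the 33 genes and -0.51 across 15429 genes, which share the same 8 libraries and are not independent. The trend differed by library. Over all genes, the slope on log2 length of log2 CPM minus the gene's mean was -0.02, -0.02, -0.18 and -0.06 in *Srsf10-kd* 1 to 4. It was 0.09, 0.10, -0.03 and 0.13 in *Ctrl* 1 to 4, so *Srsf10-kd* 3 was the most extreme and *Ctrl* 3 fell among the *Srsf10-kd* livers. The trend on length was then taken out of every library. Of the 33 genes *Npc2* alone (3.03%) kept an unadjusted p under 0.05, against 15.5% of all genes. It was also the only one whose groups did not overlap, against 10.9% of all genes. *Pmvk* was at 0.19 in place of 0.45 on the log2 scale and *Npc1* at -0.42 in place of -0.62. *Npc2* was entered at 3299 bases and *Pmvk* at 1194. Which transcript the livers used was not measured, so a gene's correction may rest on a wrong length.

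**Figure D5:**
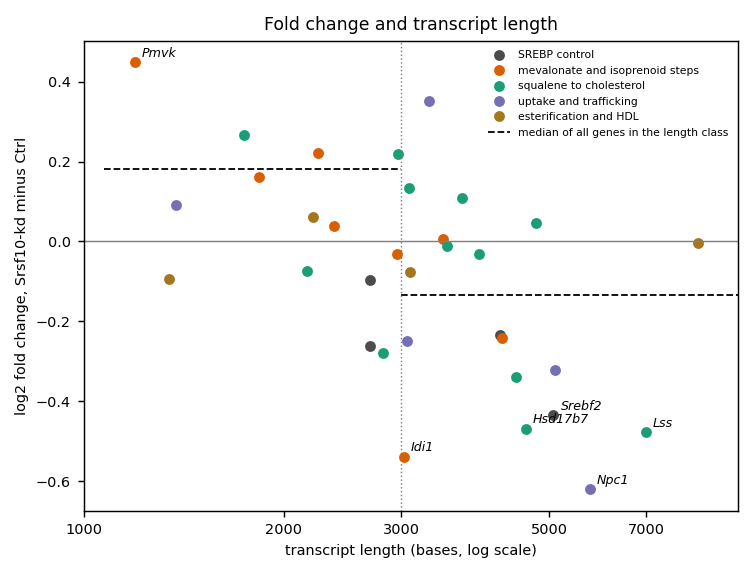
Log2 fold change of each sterol gene (y axis) against the length of its transcript in bases (x axis, log scale), coloured by role, with dashed lines at the median of all genes under 3000 bases (0.18) and of 3000 bases or more (-0.13). The longest genes with large differences, *Npc1*, *Srebf2*, *Lss* and *Hsd17b7*, are all below 0, and the shortest, *Pmvk*, is the highest.

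Other genes of the pathway were counted over 1 list of 26, of which 25 were found and tested (*Faxdc2* was not analysed here). Of these, 7 had a log2 fold change above 0 and 18 below (48.7% of all genes were below), 0 passed the adjusted threshold and 2 of 25 (8.0%, against 21.8% of all genes) had an unadjusted p under 0.05, *Mbtps2* and *Nceh1*, a cholesterol ester hydrolase (log2 fold change -0.52, adjusted p = 0.195, edgeR; named after its values were seen). Their SD of log2 CPM was larger in the *Srsf10-kd* group for 10 of 25, against 55.7% of all genes, with medians of 0.12 and 0.15. *Srebf1*, the related factor that drives fatty acid synthesis, was at 54.6, 115, 80.9 and 58.2 CPM in *Srsf10-kd* 1 to 4 and at 83.4, 84.5, 53.8 and 45.9 CPM in *Ctrl* 1 to 4 (log2 fold change 0.21, adjusted p = 0.653, edgeR). Its highest liver was *Srsf10-kd* 2, one of the 2 in which the enzymes were lowest. The proteases that release SREBP, *Mbtps1* and *Mbtps2*, both had a log2 fold change of -0.27 (adjusted p = 0.343 and 0.181). Groups did not overlap for 1 of the 25, against 14.3% of all genes. This was *Mbtps2*, at 8.43 to 9.36 CPM in the *Srsf10-kd* and 9.88 to 11.7 CPM in the *Ctrl* livers.

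Markers of other liver cells were read beside these values. The 5 cholangiocyte markers summed to 46.5 to 68.6 CPM in the *Srsf10-kd* and 31.4 to 39.1 CPM in the *Ctrl* livers. Of these 5 markers, 5 had a log2 fold change above 0. An unadjusted p under 0.05 (edgeR) was reached by 3 of 5, against 21.8% of all genes. Groups did not overlap for 2 of 5, against 14.3% of all genes, and 0 passed the adjusted threshold. The part of these markers in the differences of *Pmvk*, *Npc2* and *Ggps1* was not tested. Sums overlapped between the groups for macrophages (133 to 235 against 168 to 230 CPM), endothelial cells (206 to 241 against 216 to 260.2 CPM), stellate cells (171 to 292 against 191 to 213 CPM) and hepatocytes. Within lists, single markers differed in both directions. An unadjusted p under 0.05 was reached by 3 of 7 endothelial and 2 of 8 hepatocyte markers, against 21.8% of all genes. The endothelial log2 fold changes were 0.57 (*Lyve1*), 0.30 (*Pecam1*) and -0.57 (*Stab2*), and the hepatocyte ones -0.50 (*Hnf4a*) and 0.53 (*Apoa2*). Groups did not overlap for 1 of the 7 endothelial markers (*Lyve1*) and 0 of the 8 hepatocyte markers, against 14.3% of all genes. None of these markers passed the adjusted threshold of edgeR, and their part in the sterol genes' values was not tested.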

How the data were processed

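Liver RNA of 8 mice was sequenced from directional poly(A) libraries. The authors aligned the reads with STAR 2.7.7a to GRCm38 and deposited raw counts of reads per gene, as STAR gave them, with no normalization; the annotation release and the strand column are not given in the sources used here, so genes that overlap others on either strand, or share 75-base stretches with them, are uncertain. Nothing says whether the mice were litter mates, and p-values measure the spread between these livers. Over 28 pairs of columns the chi-square per degree of freedom was at least 46.6, so none were duplicates.

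Counts were analysed in R 4.3.3 with edgeR 4.0.16 (TMM, filterByExpr, quasi-likelihood fit on condition, two-sided, Benjamini-Hochberg over 15491 genes). Log2 levels used a prior count of 2. Exact permutation tests covered the 70 assignments of 8 livers. TPM and the length correction used the length of each gene's longest GENCODE M21 transcript. Alternatives were DESeq2 1.42.0, limma-voom with sample quality weights in every use (limma 3.58.1), and other scalings and filters. Further ones were a replicate block, a lowess correction on length (span 0.5) and each liver left out. Scripts were tested on simulated data. The genes named by liver are those with an unadjusted p under 0.05 or groups that do not overlap, and *Srebf2*, *Scap*, *Insig1*, *Hmgcs1*, *Sqle* and *Cyp51*. The members and lists were chosen with earlier results of these data known. Some genes of the wider pathway list are not reported here.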

Additional observations from a re-analysis of the deposited data

Results flagged for a closer look

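In each group of 4 livers, the gap between the highest or lowest liver and its neighbour was compared with the group's range (Dixon's criterion at 95%) over 90 groups of values. It was exceeded 6 times, where chance alone gives about 4.5. *Srsf10-kd* 1 lay above the other 3 livers of its group for *Hmgcs1* (545 against 209 to 252 CPM), *Idi1* (39.9 against 11.5 to 16.1 CPM), *Lss* (48.1 against 21.4 to 24.0 CPM) and *Dhcr7* (53.0 against 25.4 to 27.1 CPM). *Srsf10-kd* 3 lay above the others for *Ebp* (231 against 153 to 161 CPM) and below them for *Npc1* (55.8 against 91.8 to 98.5 CPM).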

How the results depend on the processing

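No sterol gene passed an adjusted p of 0.05 in any of 17 alternatives, and the smallest adjusted p was 0.0531 (*Npc2*, limma-voom). Over all genes, 11 were called by edgeR, 890 by DESeq2 and 1814 by limma-voom, and with single livers left out 0 to 544 (544 without *Ctrl* 3). The direction held in all 17 alternatives for 17 of the 33 genes, among them *Srebf2*, *Pmvk*, *Idi1*, *Sqle*, *Lss*, *Npc1* and *Npc2*, and changed in at least 1 for 16; the cause was not tested. The log2 fold change of *Srsf10* stayed between 0.09 and 0.21.

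With single livers left out, genes at an unadjusted p under 0.05 numbered 3 to 10 (9.09% to 30.3%), against 13.8% to 28.0% of all genes. Genes whose groups did not overlap numbered 3 to 10 (9.09% to 30.3%), against 16.0% to 31.7% of all genes. Both counts were highest without *Srsf10-kd* 1, and the median log2 fold change ran from -0.26 (without *Srsf10-kd* 1) to 0.041. The count of enzymes with a larger SD among the *Srsf10-kd* livers, an alternative chosen after seeing the data, ran from 11 (without *Srsf10-kd* 1) to 19. Length correction left 1 gene (3.03%) at an unadjusted p under 0.05 and 1 (3.03%) whose groups did not overlap. Over all genes these shares were 15.5% and 10.9%. Replicate numbers were not taken to pair the livers, as 1 of 4 correlations of deviations was below 0.1 (-0.18, 0.21, 0.27 and 0.22 for numbers 1 to 4) and 2 of 4 *Ctrl* livers correlated best with their own number. The replicate block gave 0 adjusted, 6 unadjusted (18.2%) and 6 with 1 sign in every number (*Ggps1*, *Npc1*, *Npc2*, *Pmvk*, *Srebf2* and *Stard4*), against 28.0% and 38.2% of all genes, and 59 calls over all genes in place of 11. Together with the length correction 6 again had 1 sign, against 28.9% of all genes.

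Log2 fold changes that changed sign were, with limma-voom, *Insig2* 0.053, *Lbr* 0.027, *Msmo1* -0.024, *Mvd* -0.053, *Hmgcs1* -0.056, *Tm7sf2* -0.045 and *Srebf1* -0.16; with no filter, *Hmgcs1* -0.0031; with the replicate block, *Hmgcs1* -0.10; with the length correction, *Soat1* 0.29, *Lbr* 0.030, *Cyp51* 0.046, *Mvk* -0.032, *Tmem97* -0.14 and *Soat2* -0.027; and with both, *Soat1* 0.27, *Lbr* 0.031, *Mvk* -0.066, *Mvd* -0.11, *Tmem97* -0.14, *Hmgcs1* -0.062 and *Soat2* -0.040. Ranges over livers left out that crossed 0 were *Mvk* -0.14 to 0.17, *Soat1* -0.10 to 0.068, *Lbr* -0.092 to 0.083, *Cyp51* -0.30 to 0.15, *Fdps* -0.40 to 0.13, *Soat2* -0.019 to 0.16, *Nsdhl* -0.31 to 0.049, *Sc5d* -0.039 to 0.11, *Hmgcs1* -0.42 to 0.15, *Mvd* -0.26 to 0.39, *Fdft1* -0.092 to 0.26, *Insig2* -0.26 to 0.033, *Tmem97* -0.036 to 0.16, *Tm7sf2* -0.15 to 0.29, *Scarb1* -0.18 to 0.042 and *Srebf1* -0.052 to 0.34.

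With 4 livers a group the 95% interval of edgeR reached 0.83 on either side of the log2 fold change at its widest (*Sqle*). This interval is not adjusted for the number of genes, so in the most variable enzymes even larger differences could miss the adjusted threshold. Without *Srsf10-kd* 1, *Idi1* had a log2 fold change of -1.11 and an adjusted p of 0.139 (edgeR).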
